A study of Mus musculus with 35 samples.

Results

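Zfp352, Tmem92, Ubtfl1, Zfp750 and Arg2 are single-copy genes used as markers of the 2-cell-like state, and this account gives the binding of NELFA at each of them. The members were the 5 genes as listed, found by symbol among 21887 protein-coding RefSeq genes of the mouse mm10 assembly (GRCm38.p6). A NELFA peak was counted for a gene when its summit, the position of highest signal, lay inside the gene or within 10 kb of either end.

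NELFA is a subunit of the negative elongation factor, which binds RNA polymerase II shortly after initiation and holds it paused near the promoter until the kinase P-TEFb releases it. The 2-cell-like state is a rare, transient condition of mouse embryonic stem cells, in which genes of the 2-cell embryo and the retroviral elements that drive some of them are switched on. DUX, a double-homeobox factor, is a known activator of that programme. The labels cannot be checked by expression here, since a peak list holds no RNA level.

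The cells were E14 mouse embryonic stem cells in 2i medium, a stable line whose NELFA transgene, tagged with Strep-HA and followed by EGFP, responds to doxycycline. Every ChIP-seq culture was induced for 16 h with 0.4 µg/ml doxycycline. Tagged NELFA was precipitated through HA in 4 libraries from 3 replicates, using antibody 1 for 3 of them and antibody 2 for 1, and input libraries (3) are the only reference named. The 20 RNA-seq and 8 ATAC-seq libraries of the 35 in the series were not analysed here. The ChIP-seq data consisted of 1 list of 59485 peaks, with no column for a single library and no read depth. The values below therefore carry no replicate error, and no difference between them was tested. Signal that depends on the HA antibody but not on tagged NELFA cannot be told apart from binding in such a list.

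Zfp352 had its peak on the promoter itself, so the sequence under it is shown first, beside the promoter of Ubtfl1, the other member with an entry in the RefSeq promoter table (GRCm38.p6) and one with no summit in this window. Each line gives the 250 bases before the gene's annotated start, 5′ to 3′ on the plus strand, at chr4:90218570-90218819 for Zfp352 and chr9:18404168-18404417 for Ubtfl1. Capitals mark a repeated string of 10 bases, GACAACACAC, and the string TATAA shortly before the start.
Zfp352: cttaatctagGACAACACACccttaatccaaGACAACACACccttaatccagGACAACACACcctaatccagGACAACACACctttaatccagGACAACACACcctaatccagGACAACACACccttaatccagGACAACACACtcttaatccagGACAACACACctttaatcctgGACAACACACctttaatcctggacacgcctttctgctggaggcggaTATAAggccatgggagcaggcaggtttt
Ubtfl1: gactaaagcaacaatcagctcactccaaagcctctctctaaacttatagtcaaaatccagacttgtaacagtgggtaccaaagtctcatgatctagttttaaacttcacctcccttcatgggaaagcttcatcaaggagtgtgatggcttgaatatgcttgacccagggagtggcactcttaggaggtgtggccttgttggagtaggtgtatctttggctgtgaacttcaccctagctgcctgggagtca

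NELFA peaks lay in or within 10 kb of 4 of the 5 genes (Zfp352, Tmem92, Ubtfl1 and Arg2), and none lay near Zfp750. Among all protein-coding genes, 42.6% had such a peak. Zfp352, Tmem92, Ubtfl1 and Zfp750 are short, at 5.5 to 8.4 kb, where the median length of protein-coding genes was 17.2 kb. Arg2, at 25.5 kb, is longer than that median. Among the 13388 protein-coding genes no longer than Arg2 the share was 35.3%. A share for genes as short as the other 4 was not computed. The 4 genes held 11 peaks in all, of which 7 belonged to Arg2. Of the 11, 1 had its summit inside a gene, at Tmem92. Counted by gene, 1 of the 5 thus had a summit in its interior, where 29.4% of protein-coding genes did. Zfp352, Ubtfl1 and Arg2 had summits outside the gene only, as 13.2% of protein-coding genes did. The shares of 29.4% and 13.2% are over genes of all lengths, and neither was computed for genes of the members' lengths.

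**Figure D1:**
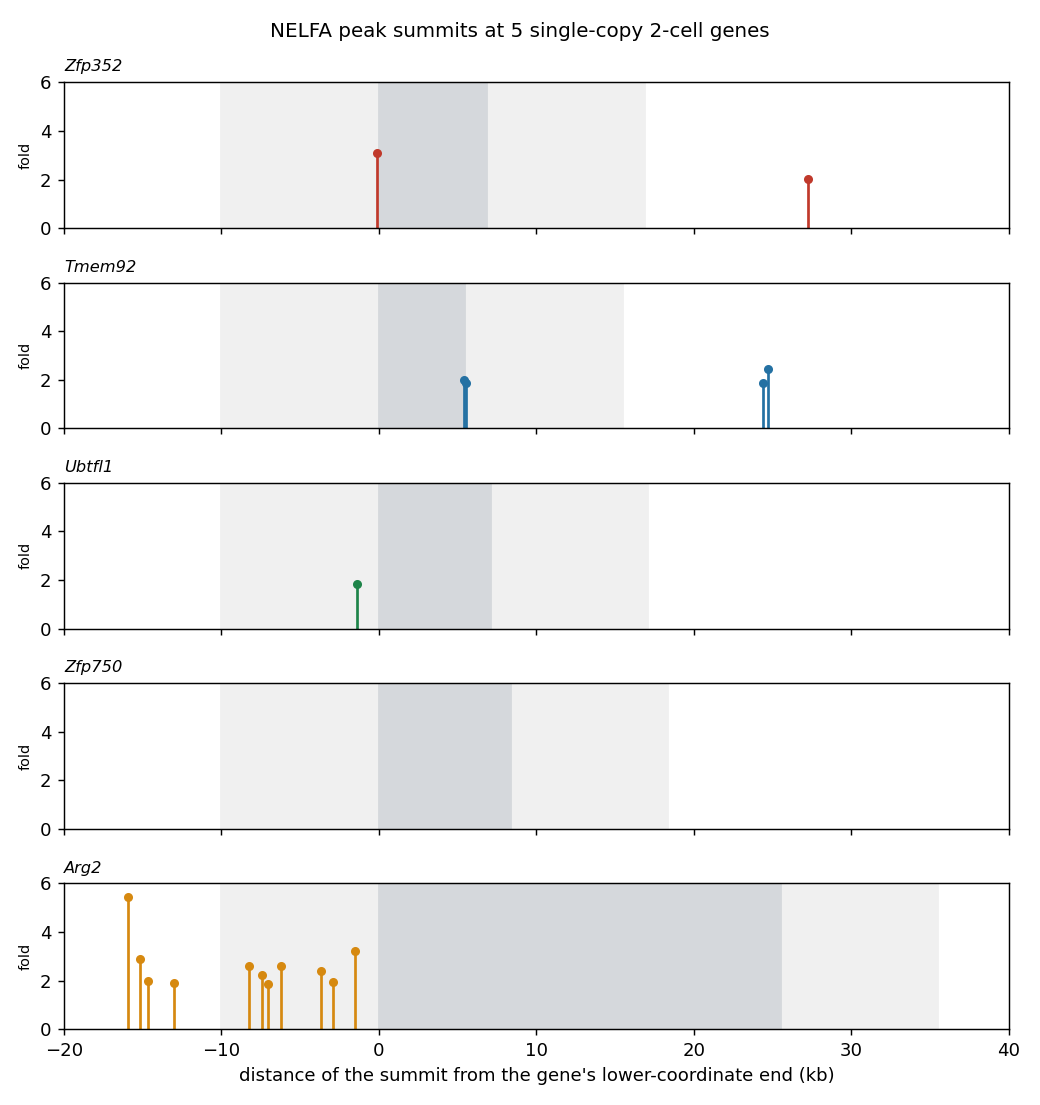
Summits of NELFA peaks around each of the 5 genes. The x axis is the distance from the gene's lower-coordinate end in kb, the y axis the fold enrichment given by the authors' peak caller, dark grey the gene and light grey the 10 kb on either side. Zfp352 and Tmem92 have summits at an end, Ubtfl1 has 1 weak peak outside it, Zfp750 has none, and the Arg2 peaks all lie below its lower-coordinate end.

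Zfp352 encodes a zinc-finger protein of the 2-cell embryo. It lies on chromosome 4 from 90218820 to 90225687 on the plus strand, with no other annotated gene within 10 kb. Its single peak, at 90218564 to 90218815, was 252 bp wide and had a fold enrichment of 3.09 over the background estimate of the peak caller, with a −log10 q of 12.51. That fold was above 86.4% of the peaks in the list, whose median was 2.09. The summit lay 142 bp before the start of the gene. A summit at 142 bp or less from either end was found for 8.43% of protein-coding genes.

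The Zfp352 peak covered bases 1 to 246 of the promoter sequence printed above, counted from its 5′ end, and stopped just before the gene. The repeated 10-base string occurred 9 times in it, from base 11 to base 186, and all 9 copies lay under the peak. All peak names include the tag MAPQ0, which may mean that reads with a mapping quality of 0 were kept, and the labels do not explain it. What repeats of this kind contribute to the fold of 3.09 was not tested. Successive copies were 20 or 21 bases apart (6 of 8 spacings were 21), and the summit fell on base 109, near the middle of the array. Shifting the first 200 bases by 21 gave 79.3% identical bases, the highest of all shifts from 10 to 60 bases, against a highest value of 35.4% for Ubtfl1 and a median of 34.6% over the table.

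Searched on both strands of the 32851 promoter windows in the table, each 300 bases long from 250 before to 50 after a start, the string occurred in 0.0517%. No other window held more than 2 copies. None of the 16 other windows with the string contained a summit. Of 22 other windows with as high a self-match at some shift, 3 contained one. Over all 32851 windows the share with a summit was 4.35%, and over the genes of the table it was 5.01%. These counts describe sequence and position only.

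The string TATAA began at base 223 of the Zfp352 promoter, 28 bases before the start, under the peak but outside the repeats. TATA-containing promoters are known to place the start of transcription about this far downstream. The string occurred on either strand of 24.9% of the windows, and on the gene's strand, starting 20 to 40 bases before the start, in 3.52%. The Zfp352 window had a GC content of 47.0% and 2 CpG dinucleotides, where the medians were 52.7% and 7. The window of Ubtfl1, with 46.0% GC and 0 CpG, was of similar composition without the repeats.

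Ubtfl1, also named Hmgpi, encodes an HMG-box protein of the preimplantation embryo related to the ribosomal RNA gene factor UBTF. It lies on chromosome 9 from 18404418 to 18411502 on the plus strand. Its only peak, at 18402980 to 18403059, had a fold of 1.86 and a −log10 q of 1.83 and was 80 bp wide. Among the protein-coding genes with a peak in their window, 2.7% had a lower highest fold. The summit lay 1419 bp before the start, and so 1169 bp before the promoter window shown. It was closer to another annotated element, standing 141 bp beyond the higher-coordinate end of the pseudogene Gm19174 (18400540 to 18402858). Naalad2, a peptidase gene on the minus strand, ends 6880 bp from Ubtfl1 and had no peak inside or within 1 kb of an end. On the other side of Ubtfl1 the next summit was 483.4 kb away.

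Zfp750 encodes a zinc-finger factor best known from the differentiation of the epidermis. It lies on chromosome 11 from 121510976 to 121519342, within the interval of the larger gene Tbcd (165.2 kb), which encodes a tubulin-folding cofactor. No summit lay in Zfp750 or within 10 kb of it. The nearest was 93.5 kb away, a peak of fold 2.22 that was the only one inside Tbcd, and on the other side the nearest was 109.8 kb away. A nearer summit was found for 83.2% of protein-coding genes, and the median distance was 18 kb.

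**Figure D2:**
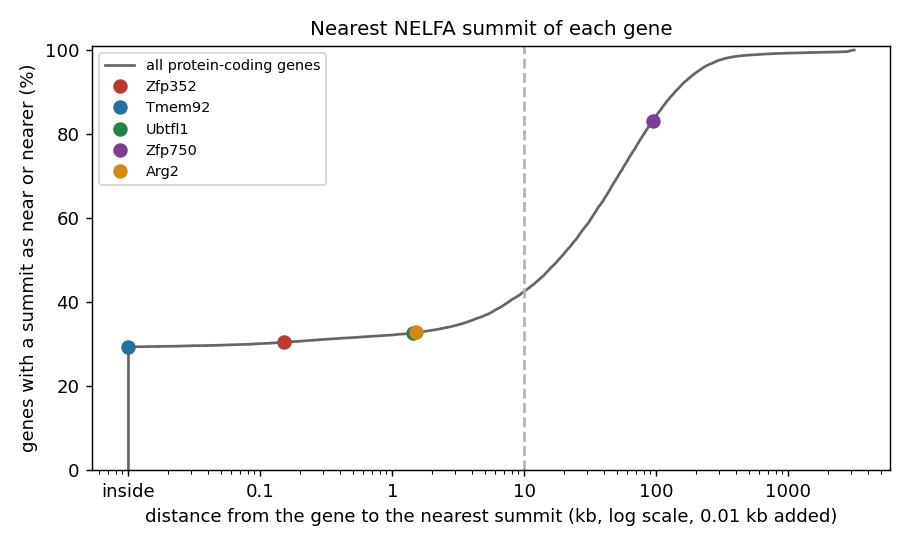
Distance from each gene to its nearest NELFA summit. The x axis is that distance in kb on a log scale with 0.01 kb added, the y axis the cumulative percentage of protein-coding genes, the points are the 5 genes and the dashed line is 10 kb. Tmem92 has a summit inside, Zfp352, Ubtfl1 and Arg2 have one within 1.51 kb, and Zfp750 stands at 93.5 kb.

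Tmem92 encodes a small single-pass membrane protein. It lies on chromosome 11 from 94777217 to 94782703, and the tables used here give no strand or promoter sequence for it. Its higher-coordinate end carried 2 narrow peaks separated by 52 bp. The first, at 94782499 to 94782646, had a fold of 2.0 and a −log10 q of 2.69, and its summit was within the gene, 88 bp from that end. The second, at 94782699 to 94782815, had 1.86 and 1.83, with its summit 12 bp outside. Both were weak for this list, above 32.4% and 6.53% of its peaks in fold. No other annotated gene lay within 10 kb, and the next summits were 18.89 kb away on the same side and 99.8 kb away on the other.

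With Zfp352, Tmem92 made 2 of the 5 genes with a summit within 1 kb of an end, where 18.8% of protein-coding genes had one. The 3 others had none there. Ubtfl1 and Arg2 missed this limit narrowly, with nearest summits 1.42 and 1.51 kb outside. With a limit of 2 kb, 4 of the 5 had one, against 21.8% of protein-coding genes.

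Arg2 encodes the mitochondrial arginase, which splits arginine into ornithine and urea. It lies on chromosome 12 from 79130788 to 79156301, with no strand given in the tables. It had the most peaks of the 5, and all of them lay outside one end. Its 7 counted peaks had summits 1.51 to 8.22 kb below the lower-coordinate end, and none lay inside the gene or in the 10 kb beyond the other end, where the next summit was 409.6 kb away. At least 7 summits in the same kind of window were found for 6.02% of protein-coding genes, and at least 7 outside one end with none inside for 0.292%.

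The peak nearest to Arg2, at 79128537 to 79129495, was the strongest of the 7, with a fold of 3.22 and a −log10 q of 14.04. It was 959 bp wide, and 95.4% of the peaks in the list were narrower. The next but one, at 79125768 to 79127325, was 1558 bp wide, above 98% of the list, but had a fold of only 2.41. Between them stood a narrow peak of 1.95. The 4 farther out, at 6.21, 7.03, 7.41 and 8.22 kb, had folds of 2.59, 1.86, 2.22 and 2.59.

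The limit of 10 kb divided this group of peaks. The outermost counted peak was at 8.22 kb and the first uncounted one at 13.02 kb, with a fold of 1.91. Beyond it stood peaks of 2.0 at 14.66 kb, 2.9 at 15.14 kb and 5.45 at 15.95 kb. The last had a −log10 q of 45.7 and a higher fold than 97.7% of the list, so that the strongest peak near Arg2 was outside its window. Taken with a spacing under 5 kb between summits, the 11 peaks formed 1 run of 15.1 kb, from 79114410 to 79129495, of which peaks covered 35.4%. Runs of 11 or more peaks numbered 524 of 24324 (2.15%) on chromosomes 1 to 19, X and Y.

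The annotated element nearest to the run, named after its position was seen, was the pseudogene Gm8255 (79113466 to 79113985), 425 bp from the outer end that holds the peak of fold 5.45. Arg2 was 1293 bp from the other end. The long noncoding RNA gene Gm40462 lies within the Arg2 interval, and its nearest end was 10849 bp from the closest summit. Vti1b, a vesicle-fusion gene on the minus strand whose interval overlaps the higher-coordinate end of Arg2, was 26736 bp from it. Neither Gm40462 nor Vti1b had a peak inside or within 1 kb of an end.

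**Figure D3:**
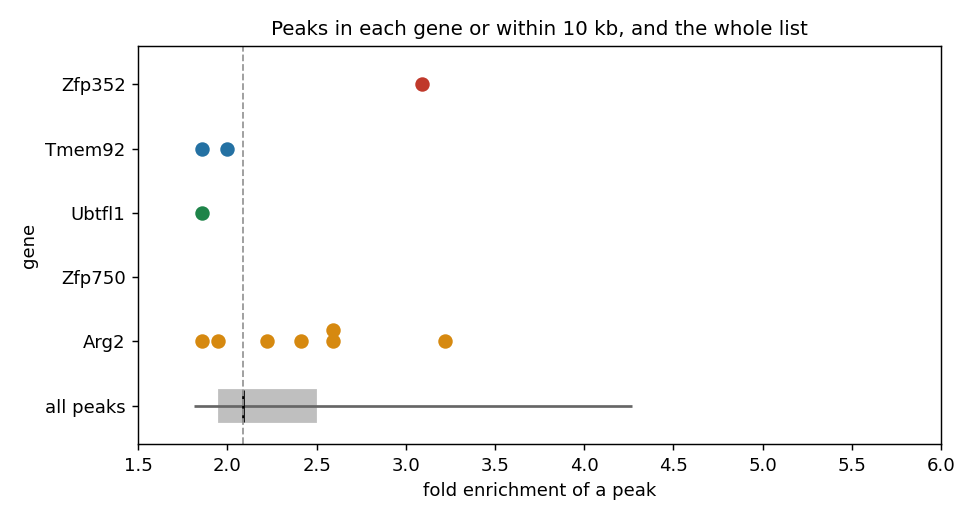
Fold enrichment of the 11 peaks by gene, with the whole list below. The x axis is fold enrichment, each point is 1 peak (equal folds are stacked), the box spans the middle 50% of all peaks with its median as a dark line, its whisker the range from 5 to 95%, and the dashed line repeats the median of 2.09. The Zfp352 peak and the strongest Arg2 peak lie above 3, the Tmem92 and Ubtfl1 peaks below the median, and Zfp750 has no point.

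By their highest fold the genes with a peak ran from Arg2 (3.22) and Zfp352 (3.09) to Tmem92 (2.0) and Ubtfl1 (1.86). Without an error for any peak, whether neighbours in this order differ cannot be said. Among the 9329 protein-coding genes with a peak in the window, the median of the highest fold was 2.31. A lower highest fold than that of Arg2 was found for 79.2% of them, and than that of Zfp352 for 77.3%. Of the 11 peaks, 6 had a −log10 q of at least 4, 5 of them at Arg2 and 1 at Zfp352. The weakest of these 6, an Arg2 peak with a fold of 2.22 and a −log10 q of 4.33, was above 58.9% of the list in fold. Peaks of this strength were therefore common in the list.

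In the 1 Mb centred on each gene there were 8 summits at Zfp352, 21 at Tmem92, 15 at Ubtfl1, 17 at Zfp750 and 23 at Arg2, where the median for protein-coding genes was 14. All but Zfp352 were thus above that median. At Arg2, 11 of the 23 belonged to the run described above. Zfp352 had the lowest of these 5 counts, and the next summit after its peak lay 20.36 kb beyond the gene's higher-coordinate end, with a fold of 2.04.

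Beside the 4 of 5 single-copy markers with a summit in the gene or within 10 kb stand 32 of 45 other genes of the 2-cell state (71.1%), in a list drawn up with earlier results of these data known, and 42.6% of protein-coding genes. The highest folds of the single-copy markers ran from 1.86 to 3.22, and those of the other genes with a peak from 2.0 to 13.06. Among the other genes Sp110, a nuclear body gene, led with 13.06, followed by the gene model Gm5662 (9.76) and Duxf3, a copy of the Dux gene (7.6). The homeobox genes Cphx1 and Obox1 and the methyl-binding-domain-like gene Mbd3l2, which lies in the same stretch of chromosome 9 as Ubtfl1, had none.

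Families with several copies in the list accounted for 33 of these genes. Not all of these copies are in tandem, since Rfpl4 lies on chromosome 7 and Rfpl4b on chromosome 10. In the families 23 (69.7%) had a summit in the window. The 1 Mb around the single-copy markers held 8 to 23 summits, and that around the family genes a median of 104. The families varied widely, with medians from 19 for Pramel and 20 for Usp17l, both within the range of the markers, to 232 for Obox. All 4 Zscan4 genes and all 5 gene models on chromosome 12 had a summit, but neither Pramel gene had one. Reads from near-identical copies may have been assigned to several places, and the tag MAPQ0 in the peak names may refer to such reads. Whether such reads contribute to the counts at the families was not tested. The 12 listed genes with no second copy in the list had a summit in 9 cases (75%), with a median of 21.5 summits in 1 Mb. These 12 are not all single-copy genes, since Duxf3 belongs to a repeat array and Sp110 stands among 415 summits in 1 Mb. Within 1 kb of an end, 2 of the 5 single-copy markers had a summit, beside 17 of the 33 family genes (51.5%), 4 of the 12 others (33.3%) and 18.8% of protein-coding genes.

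**Figure D4:**
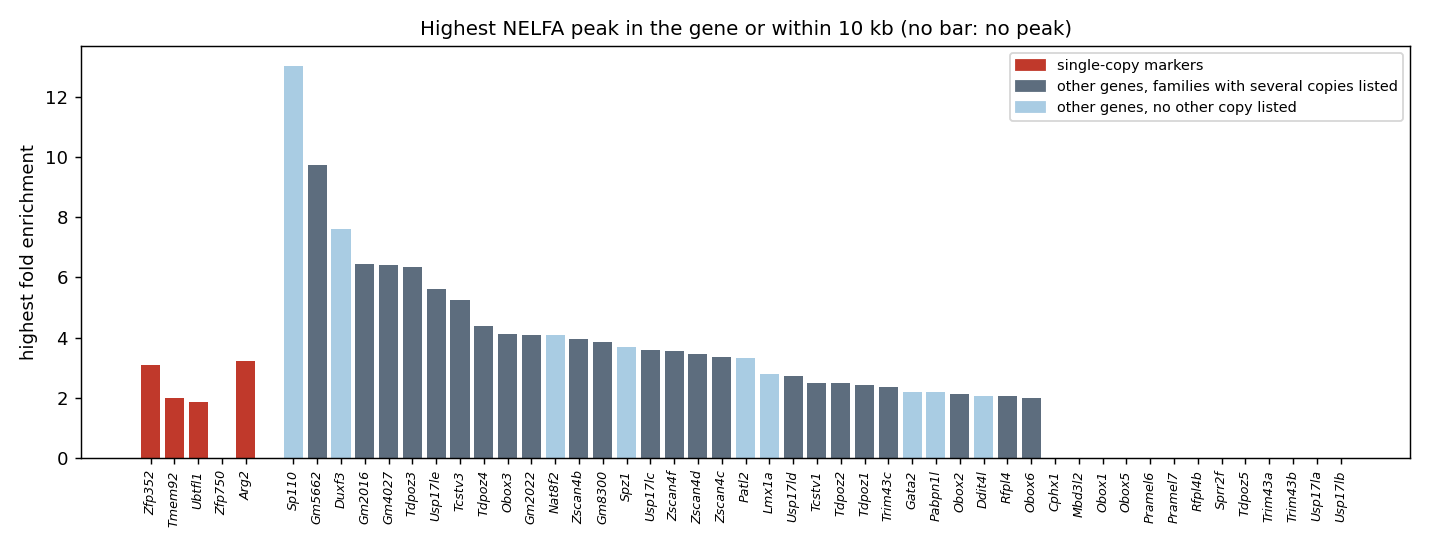
Highest fold enrichment of a NELFA peak in each gene or within 10 kb, for the 5 single-copy markers on the left and 45 other genes of the 2-cell state on the right. The y axis is fold enrichment, and a gene without a bar has no peak. The single-copy markers reach 3.22, and the bars of the other genes run from 2.0 to 13.06.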

How the data were processed

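The 7 ChIP-seq libraries were represented by 1 narrowPeak list without a header. The submitters' processing notes name mm10, MACS2, Bowtie2 2.2.9, SAMtools 1.4 and Trim Galore 0.4.2. All 59485 peak names carry the tags R1234 and MAPQ0, which may refer to the libraries pooled and to the mapping filter, but call settings and pooling are not stated in the labels. Each peak's fold enrichment is a linear ratio deposited by the authors. Significance was deposited as −log10 of a q-value (lowest 1.31). Both were used only within this list.

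Summits were start plus offset, written 1-based. Genes came from RefSeq (GRCm38.p6) on chromosomes 1 to 19, X and Y, and promoter sequences from its promoter table, which held 2 of the 5 members. Cml2 was matched through its synonym Nat8f2, and the other listed symbols matched directly. The repeated string was the most frequent 10-base string of the Zfp352 window, chosen after seeing the sequence, as were the shift measure and the TATAA search.

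Named genes were by rule the 5 members and genes within 10 kb of them. Of the other 2-cell-state genes, the rule took the 3 with the highest folds and the first 3 without a peak by alphabet. Outside this rule, Gm8255 was named as the element nearest to the run beside Arg2. Rfpl4, Rfpl4b, Cml2 and the families were also named outside it, from the list of other genes. The members and lists were chosen with earlier results of these data known. No test was run. The counting of summits by position was checked with planted positions at isolated protein-coding genes. Of these, 150 of 150 in the window were counted and 0 of 50 beyond it. Neither peak calling nor crowded loci were covered by this check. Python 3.11.15, numpy 2.4.6, pandas 2.3.3 and matplotlib 3.10.9 were used.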

Additional observations from a re-analysis of the deposited data

How the results depend on the processing

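Counts were recomputed with other windows, stricter peaks and interval overlap, and 11 of 20 stayed within 1.5 times their value. With a −log10 q of at least 4, 2 members (Zfp352 and Arg2) had a peak in the gene or within 10 kb, 6 peaks were left over all members, and 1 member had one within 1 kb of an end. Peaks at or above the median fold gave the same 3 counts, 2, 6 and 1. For this setting the share of protein-coding genes with a peak within 1 kb of an end was not computed. Windows of 5 and 20 kb gave 7 and 17 peaks over all members, with 4 members in both, where 36.9% and 51.6% of protein-coding genes had a peak. A limit of 2 kb from an end gave 4 members, against 21.8% of protein-coding genes. By construction, the stricter settings keep fewer peaks of the list, and the other windows take in a smaller or larger stretch around each gene. The share of all protein-coding genes with a peak in the window was 25.6% at a −log10 q of at least 4 and 31% at or above the median fold, and the share with one within 1 kb of an end was 9.81% at a −log10 q of at least 4. No paired analysis was possible because the list holds no value for a single library, and for the same reason no replicate could be left out. The depth behind each peak is unknown, and weak peaks such as those of Tmem92 and Ubtfl1 lie close to the list's own limit.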

Other observations

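Low folds in the list mostly fall on values shared by many peaks. The fold of 1.86 at Ubtfl1 was also that of the outer Tmem92 peak and of the Arg2 peak at 7.03 kb, and 4998 peaks (8.4% of the list) carried exactly this fold, all with the same −log10 q. Only 6.53% of the peaks had a lower one. The fold of 2.0 at the inner Tmem92 peak was shared by 4253 peaks, and that of Zfp352 by 344. Sharing was rarer at high folds, with 29 peaks at the 5.45 of the outermost peak near Arg2. Neighbouring low folds thus mostly differ by steps that are shared over the list.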
